A study of Saccharomyces cerevisiae with 51 samples.

Results

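The most quiescent-like RNA profiles of a yeast arp5 deletion and of its wild-type parent were set against each other. They are 4 of the 51 samples of the series: the 2 arp5 deletion libraries labelled OX late and the 2 wild-type libraries labelled RC start. This pair was chosen by likeness of the transcript profile and not by label. For each gene the log2(FPKM + 1) values were centred within their own genotype, and these 2 phases had the highest correlation for the arp5 deletion OX late profile. FPKM count sequenced fragments per length of gene, after division by a scale set for each library. Because the values themselves chose the pair, its likeness and its remaining differences are given as a description, and tests come from the 20 libraries of the other phases. Those 20 libraries entered the centring, and the tests take over the offset between the labels of the pair. They are thus not wholly independent of the choice.

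The arp5 deletion strain is CEN.PK ARP5::KAN, in which a drug-resistance cassette replaces ARP5, and the wild type is CEN.PK, a laboratory strain of Saccharomyces cerevisiae that carries no other change named in the labels. Both were grown in continuous culture, which brings the cells into a shared metabolic cycle, and 6 phases were labelled in each: RC start, RC mid, OX mid, OX late, RB start and RB late. Letters A and B mark 2 separate RNA preparations from the same culture, so they are technical replicates, and each genotype rests on 1 culture. Standard errors and calls within the pair therefore measure technical spread, and an effect of the deletion cannot be told apart from a difference between the 2 cultures.

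In the yeast metabolic cycle, an oxidative phase (OX) with high oxygen use and strong expression of ribosome genes is followed by reductive building (RB), in which mitochondrial and division genes are expressed, and by reductive charging (RC), in which oxygen use is low and cells express genes for stress protection, storage carbohydrates and fatty acid breakdown. RC cells resemble quiescent cells in these respects, hence the name quiescent-like. Arp5 is an actin-related subunit of INO80, a chromatin remodeller that slides nucleosomes, and Arp5 is needed for that activity in biochemical work with the yeast complex.

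The 24 cycle libraries held an estimated 4.97 to 9.68 M reads on genes. In the pair there were 6.34 and 6.78 M in arp5 deletion OX late and 6.30 and 9.68 M in wild-type RC start. FPKM sums were not held equal by the scaling: they came to 1.21 and 1.18 M in arp5 deletion OX late, against 1.65 and 1.64 M in wild-type RC start. The 10 most abundant genes took 14.0% and 14.1% of the sum in arp5 deletion OX late and 19.9% and 20.04% in wild-type RC start. Library A of wild-type RC start stood apart in RNAs that lack a poly(A) tail. Of 78 such RNAs tested, 11 were at least 2-fold higher in A than in B in arp5 deletion OX late, against 31 in wild-type RC start. Their summed FPKM was 882 and 859 in arp5 deletion OX late, and 2041 and 706 in wild-type RC start. Counts without this library are given beside the main ones. Of 6840 genes in the table, 6510 had a mean of at least 1 FPKM over the 24 libraries and were tested. PHO11 (mean 1.00 FPKM) and YLR462W (1.02) were just inside this limit, and YGR164W (0.994) and tI(AAU)D (0.992) just outside.

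ARP5 (YNL059C, chromosome XIV, 512668 to 514935 in RefSeq assembly R64, a protein-coding gene) was listed at 0 in both arp5 deletion OX late libraries and had 46.4 and 48.8 FPKM in wild-type RC start. The labels of the pair thus match the targeted gene.

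Most markers of the quiescent-like state were at or near their highest level of the cycle in both phases, at different levels. SPG4, which is required for survival at high temperature in stationary phase, had 8289 and 7719 FPKM in arp5 deletion OX late and 22915 and 22808 FPKM in wild-type RC start. In each genotype that was the highest of the 6 phases. SPG1, another stationary-phase gene, was also at its highest in both, with 1564 and 1515 FPKM in arp5 deletion OX late and 4146 and 4094 FPKM in wild-type RC start. GPH1, which encodes the glycogen phosphorylase, had 751 and 770 FPKM in arp5 deletion OX late, against 664 and 687 FPKM in wild-type RC start. The catalase gene CTT1 had 582 and 574 FPKM in arp5 deletion OX late and 595 and 620 FPKM in wild-type RC start. GPH1 and CTT1 thus had nearly equal levels in the 2 phases, whereas SPG1 and SPG4 were lower in arp5 deletion OX late. SSA3 was the marker that did not peak here in either genotype. Its highest phase was RB start in the deletion (201 FPKM, against 69.0 FPKM in OX late) and RC mid in wild type. CTT1 and a further marker, HSP12, were also highest at RB start in the deletion, at 582 and 30653 FPKM, against 578 and 27883 FPKM in OX late. GPH1 was highest at RB late in wild type, at 737 FPKM, against 675.5 FPKM in RC start. Of the 7 markers of this state, 4 were called lower in arp5 deletion OX late and none higher, and their summed FPKM was 39367 and 39134 there, against 77252 and 78151 in wild-type RC start. All 4 growth markers (NSR1, DBP2, NOP1 and RPL3) were called higher in arp5 deletion OX late, where they summed to 876 and 849 FPKM, against 354 and 373 FPKM in wild-type RC start. In bulk RNA, a smaller share of cells in a state and less RNA of that state per cell cannot be told apart.

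Phases with the same label did not match between the strains. The centred profile of arp5 deletion OX late had r = 0.83 with wild-type RC start over 6510 genes, and r = -0.66 with wild-type OX late, which carries the same label. Along the labelled order of wild-type phases, r was 0.83 at RC start, 0.41 at RC mid, -0.76 at OX mid, -0.66 at OX late, -0.44 at RB start and 0.80 at RB late. Wild-type RB late was thus nearly as close a match as RC start. Arp5 deletion RB start also had its highest value with wild-type RC start, at 0.70, so 2 arp5 deletion phases pointed to the same wild-type phase. These correlations are across genes within 1 set of libraries, and genes are not independent replicates. Centring each gene over all 12 groups, which keeps the difference between the genotypes in the profile, gave r = 0.56 for the pair.

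**Figure D1:**
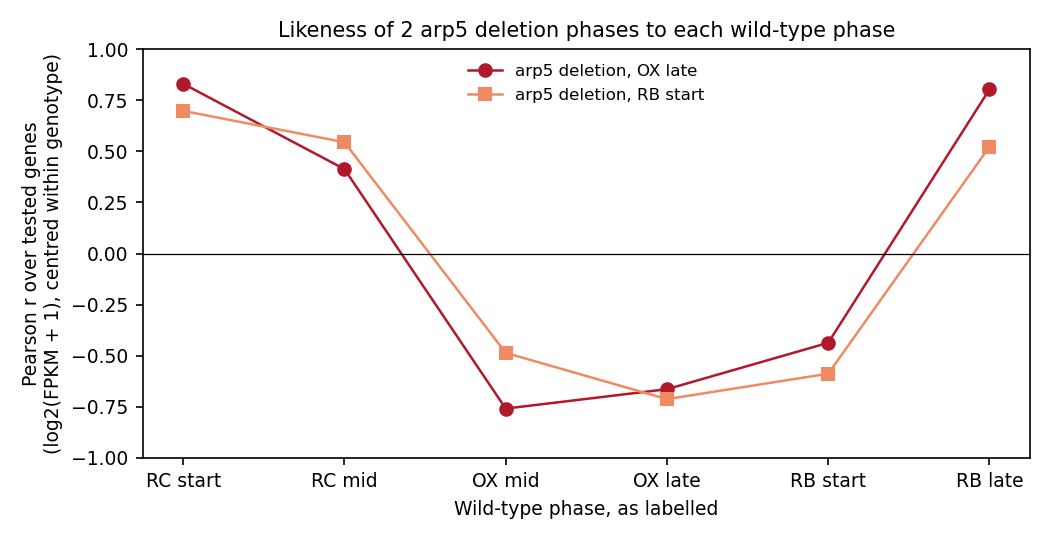
Pearson correlation (vertical axis, from -1 to 1) of the centred profiles of arp5 deletion OX late (circles) and RB start (squares) with the 6 wild-type phases in labelled order (horizontal axis), over 6510 genes. Arp5 deletion OX late is highest at wild-type RC start (0.83) and RB late (0.80) and lowest at OX mid (-0.76).

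Most genes had similar levels in the matched phases. The log2 difference, arp5 deletion OX late minus wild-type RC start, was under 1 in either direction for 5689 of 6510 genes (87.4%), and its median size was 0.38. A gene was called when limma's adjusted p, from all 24 libraries, was under 0.05 and the log2 difference was at least 1. By this rule 454 genes (6.97%) were called higher and 315 (4.84%) lower in arp5 deletion OX late. Counts within the gene lists below are to be read beside these shares. Without wild-type RC start library A the counts were 428 and 298. The median over all genes was 0.03. Quantile normalization, which makes the distribution of values equal in every library, gave 363 higher and 303 lower, and it called 328 of the 454 and 229 of the 315. Since wild-type RB late was nearly as close a match, values against it, from the same arp5 deletion OX late libraries, are given beside several groups whose calls it changes. Values for some further groups follow in the paragraph on the choice of wild-type phase.

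**Figure D2:**
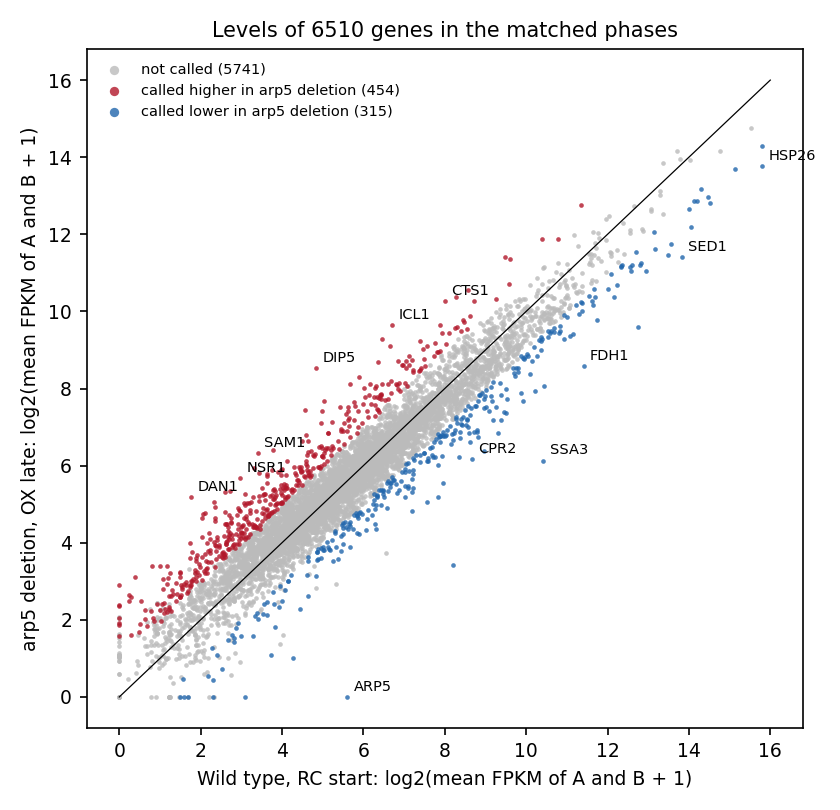
Level of each of 6510 genes in arp5 deletion OX late (vertical axis) and wild-type RC start (horizontal axis), as log2(mean FPKM of A and B + 1), with the diagonal of equal levels. The 454 genes called higher (red) and the 315 called lower (blue) flank the genes not called (grey), and ARP5 lies at 0 in the deletion.

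Genes of ribosome assembly made up the largest group of higher genes among the 35 gene lists examined. Of 138 tested, 68 (49.3%) were called higher and none lower, and 133 had a positive difference, with a median log2 difference of 0.98. The median gene of the list had 21.4 and 20.4 FPKM in arp5 deletion OX late and 9.27 and 9.12 FPKM in wild-type RC start. DBP2, an RNA helicase gene, had 33.1 and 31.2 FPKM in arp5 deletion OX late, against 4.33 and 3.72 FPKM in wild-type RC start (log2 difference 2.73 ± 0.09, SE). NSR1, which encodes a nucleolar protein that binds pre-rRNA, had 51.1 and 49.0 FPKM in arp5 deletion OX late and 7.13 and 6.57 FPKM in wild-type RC start (2.70 ± 0.08). Both genes were nonetheless near the bottom of their own cycle in each strain, since NSR1 reached 673 FPKM at arp5 deletion RC start and 1464 FPKM at wild-type OX mid. Without library A of wild-type RC start 62 of the list were called, and 47 under quantile normalization. Against wild-type RB late 25 were called higher.

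The other parts of the ribosome programme differed less. Among cytosolic ribosomal protein genes 9 of 137 (6.57%) were called higher and 3 (2.19%) lower, against 6.97% and 4.84% over all genes. Their median log2 difference was 0.44, with 114 positive values, and quantile normalization gave 29 higher and 2 lower. RPS26B had 423 and 421 FPKM in arp5 deletion OX late and 134 and 127 FPKM in wild-type RC start (1.69 ± 0.05). RPS9A went the other way, with 113 and 106 FPKM in arp5 deletion OX late, against 247 and 239 FPKM in wild-type RC start (-1.14 ± 0.06). Paralogous ribosomal protein genes can share reads. Of 33 genes of RNA polymerases I and III, 6 (18.2%) were called higher and 1 (3.03%) lower. The polymerase I subunit genes RPA43 (1.93 ± 0.10) and RPA49 (1.61 ± 0.13) led them, and RRN3, which encodes the factor that recruits polymerase I to its promoter, was the lower member (-1.09 ± 0.11). RMT2, which encodes an arginine methyltransferase that modifies a ribosomal protein, had 41.0 and 36.2 FPKM in arp5 deletion OX late, against 4.46 and 5.65 FPKM in wild-type RC start.

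Sulfur and methyl-group genes differed in a direction that depended on the wild-type phase. Of 33 tested, 14 were called higher and none lower against wild-type RC start, with a median of 0.66, whereas 13 were called lower and none higher against wild-type RB late, with a median of -0.64. SAM1, an S-adenosylmethionine synthetase gene, had 80.9 and 76.4 FPKM in arp5 deletion OX late and 10.3 and 8.92 FPKM in wild-type RC start (2.91 ± 0.07). MET6, the methionine synthase gene, had 628 and 613 FPKM in arp5 deletion OX late, against 89.3 and 84.0 FPKM in wild-type RC start (2.83 ± 0.05). The levels in each pair of libraries were close. For both genes the groups did not overlap, which was required of genes named as largest rises. Against wild-type RB late neither gene was called, at 0.23 for SAM1 and -0.19 for MET6. Of 70 amino acid synthesis genes, 14 were called higher and none lower, with a median of 0.40, but 1 higher and 2 lower against wild-type RB late. SHM2, the cytosolic serine hydroxymethyltransferase gene, led them with 283 and 267 FPKM in arp5 deletion OX late and 49.4 and 49.7 FPKM in wild-type RC start (2.45 ± 0.05). SER3, which starts serine synthesis, followed with 144 and 133 FPKM in arp5 deletion OX late and 37.8 and 35.4 FPKM in wild-type RC start.

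Nitrogen genes were mixed, with 11 of 37 called higher and 3 lower, and 3 higher and 5 lower against wild-type RB late. DIP5, the permease gene for glutamate and aspartate, had the largest positive difference of any gene tested. It had 352 and 383 FPKM in arp5 deletion OX late and 26.4 and 28.8 FPKM in wild-type RC start, a 13.3-fold ratio of the means (log2 difference 3.69 ± 0.07). GDH1, which encodes the glutamate dehydrogenase that assimilates ammonium, had 622 and 584 FPKM in arp5 deletion OX late, against 164 and 173 FPKM in wild-type RC start (1.84 ± 0.05). MEP3, an ammonium permease gene, was lower, with 72.1 and 64.4 FPKM in arp5 deletion OX late and 192 and 183 FPKM in wild-type RC start (-1.45 ± 0.07), as was UGA1, the GABA transaminase gene (-1.17 ± 0.06).

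Several genes that let cells build sugars from acetate were higher in the deletion. Of 24 genes for acetate, ethanol, glyoxylate and gluconeogenesis, 8 were called higher and 1 lower (median 0.45). ICL1, the isocitrate lyase gene, had 824 and 784 FPKM in arp5 deletion OX late and 108 and 99.7 FPKM in wild-type RC start (2.94 ± 0.06). MLS1, the malate synthase gene, had 320 and 305 FPKM in arp5 deletion OX late, against 57.1 and 60.4 FPKM in wild-type RC start (2.39 ± 0.05). Against wild-type RB late neither glyoxylate cycle gene was called, with ICL1 at 0.86 and MLS1 at -0.25, while the list had 6 higher and 1 lower. Among genes named after their values were seen, the gluconeogenic FBP1 (2.32 ± 0.08) and PCK1 (2.14 ± 0.08) were called higher too. The ethanol dehydrogenase gene ADH2, also named after its values were seen, had 15957 and 15448 FPKM in arp5 deletion OX late and 16702 and 16635 FPKM in wild-type RC start, a log2 difference of -0.09 ± 0.04. FDH1, which encodes formate dehydrogenase, was the lower member of the list, with 395 and 372 FPKM in arp5 deletion OX late, against 2751 and 2712 FPKM in wild-type RC start (-2.83 ± 0.14). A near-identical copy can share its reads.

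Storage and peroxisome genes were close in the 2 phases. Of 18 trehalose and glycogen genes only GSY1, a glycogen synthase gene, was called, with 435 and 415 FPKM in arp5 deletion OX late and 149 and 144 FPKM in wild-type RC start (1.53 ± 0.07), and the median of the list was 0.07. Of 47 peroxisome and fatty acid oxidation genes, 3 (6.38%) were called higher and 1 (2.13%) lower, against 6.97% and 4.84% over all genes. The median of this list was -0.06. The carnitine acetyltransferase gene YAT1 was higher (1.78 ± 0.09). POT1, the thiolase gene of fatty acid oxidation, was lower, with 432 and 401 FPKM in arp5 deletion OX late, against 1146 and 1123 FPKM in wild-type RC start (-1.44 ± 0.09).

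Genes of stress protection and stationary phase formed the main lower groups. Of 35 stress and heat shock genes, 12 were called lower and 1 higher, with a median of -0.76, and of 29 quiescence and stationary-phase genes 12 were called lower and 1 higher, with a median of -0.66. SSA3, an Hsp70 chaperone gene, had 72.1 and 65.9 FPKM in arp5 deletion OX late and 1372.5 and 1371.5 FPKM in wild-type RC start, a 19.9-fold lower mean in the deletion (log2 difference -4.30 ± 0.06). HSP26, a small heat shock protein gene, had 14286 and 13498 FPKM in arp5 deletion OX late, against 56621 and 57546 FPKM in wild-type RC start (-2.04 ± 0.04). PAI3, which encodes an inhibitor of vacuolar proteinase A, had 912 and 853 FPKM in arp5 deletion OX late and 3475 and 3322 FPKM in wild-type RC start (-1.94 ± 0.07). RGI2, a gene induced in respiratory growth, was also lower (-1.82 ± 0.06). The exceptions were TSA2, a peroxiredoxin gene, with 288 and 263 FPKM in arp5 deletion OX late and 90.1 and 84.5 FPKM in wild-type RC start (1.65 ± 0.09), and FMP45, which encodes a membrane protein (1.08 ± 0.08).

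The number of lower genes in these groups depended on the wild-type phase and on the scaling. Against wild-type RB late the stress genes had 2 lower and 4 higher, with a median of -0.18, and the quiescence genes 2 lower and 3 higher, with a median of -0.29. HSP26 stood at 0.01 there and SSA3 at -1.31, still called. Under quantile normalization 2 stress genes and 4 quiescence genes were called lower, with list medians of -0.55 and -0.48, and HSP26 (-0.94) and RGI2 (-0.77) no longer passed. SSA3 and PAI3 passed under both scalings.

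Energy genes were lower in 2 groups. Of 45 respiratory chain and ATP synthase genes, 11 were called lower and none higher, with a median of -0.75 and 4 positive values. CYC7, a cytochrome c gene, had 60.9 and 66.2 FPKM in arp5 deletion OX late and 233 and 220 FPKM in wild-type RC start (-1.82 ± 0.12). QCR6, a subunit gene of complex III, had 1645 and 1628 FPKM in arp5 deletion OX late, against 4955 and 4696 FPKM in wild-type RC start (-1.56 ± 0.06). Of 28 glycolysis and fermentation genes, 8 were called lower and 2 higher (median -0.41), with PGK1, the phosphoglycerate kinase gene, at 2475 and 2412 FPKM in arp5 deletion OX late and 7156 and 7298 FPKM in wild-type RC start (-1.56 ± 0.05), and TDH3, the main glyceraldehyde-3-phosphate dehydrogenase gene, at -1.42 ± 0.04. HXK2, the hexokinase gene of growth on glucose, was higher (1.14 ± 0.04). Quantile normalization left 3 respiratory and 2 glycolytic genes called lower, and QCR6 (-0.70), PGK1 (-0.69) and TDH3 (-0.61) no longer passed.

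Genes of the TCA cycle had 1 of 26 called higher (3.85%) and 2 lower (7.69%), against 6.97% and 4.84% over all genes (median -0.20). Mitochondrial ribosomal protein genes (none of 72 higher, 2 lower, median -0.28) and proteasome genes (none of 33 called, -0.39) had few calls. Against wild-type RB late 23 of the 72 mitochondrial ribosomal protein genes were called lower, with a median of -0.87, and 6 of the 26 TCA cycle genes. All 33 proteasome genes had a negative difference, each under the 2-fold limit, and 31 had an unadjusted limma p under 0.05. Their median was 0.15 against wild-type RB late, with none called, and -0.21 against wild-type RC start under quantile normalization.

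Several wall protein genes had large negative differences. SED1, a major wall protein gene of stationary phase, had 2823 and 2580 FPKM in arp5 deletion OX late and 14773 and 14313 FPKM in wild-type RC start (-2.43 ± 0.06). SPI1, another wall protein gene, had 277 and 253 FPKM in arp5 deletion OX late, against 1428 and 1360 FPKM in wild-type RC start (-2.39 ± 0.07). HPF1, which encodes a wall mannoprotein, had 115 and 114 FPKM in arp5 deletion OX late, against 634 and 641 FPKM in wild-type RC start (-2.47 ± 0.07). These 3 genes showed no overlap between the groups, which was required of genes named as largest falls. Of 49 glycosylation and wall genes 5 were called lower and 2 higher, with a median of 0.03, so the list as a whole did not share the direction of SED1 and SPI1. SRL1 (1.43 ± 0.09) and CRH1, a transglycosylase gene that links chitin to glucan (1.38 ± 0.05), were the higher members. Among sterol synthesis genes 7 of 29 were called lower and none higher (median -0.32). ERG28, which encodes a scaffold of the sterol enzymes, had 228 and 240 FPKM in arp5 deletion OX late and 911 and 951 FPKM in wild-type RC start (-1.99 ± 0.05), and CYB5, the cytochrome b5 gene, was next (-1.74 ± 0.05). CPR2, a cyclophilin gene, had 74.6 and 67.4 FPKM in arp5 deletion OX late, against 413 and 400 FPKM in wild-type RC start (-2.50 ± 0.08). PNS1 (-2.51 ± 0.09), SRY1, which encodes an amino acid dehydratase (-2.36 ± 0.11), and MPM1, a mitochondrial membrane protein gene (-2.25 ± 0.07), completed the 10 largest falls among genes with a standard name. Genes without one held larger falls than most of these: YER053C-A, chosen after its values were seen, had 781 and 752 FPKM in arp5 deletion OX late and 6953 and 6806 FPKM in wild-type RC start (-3.16 ± 0.10).

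**Figure D3:**
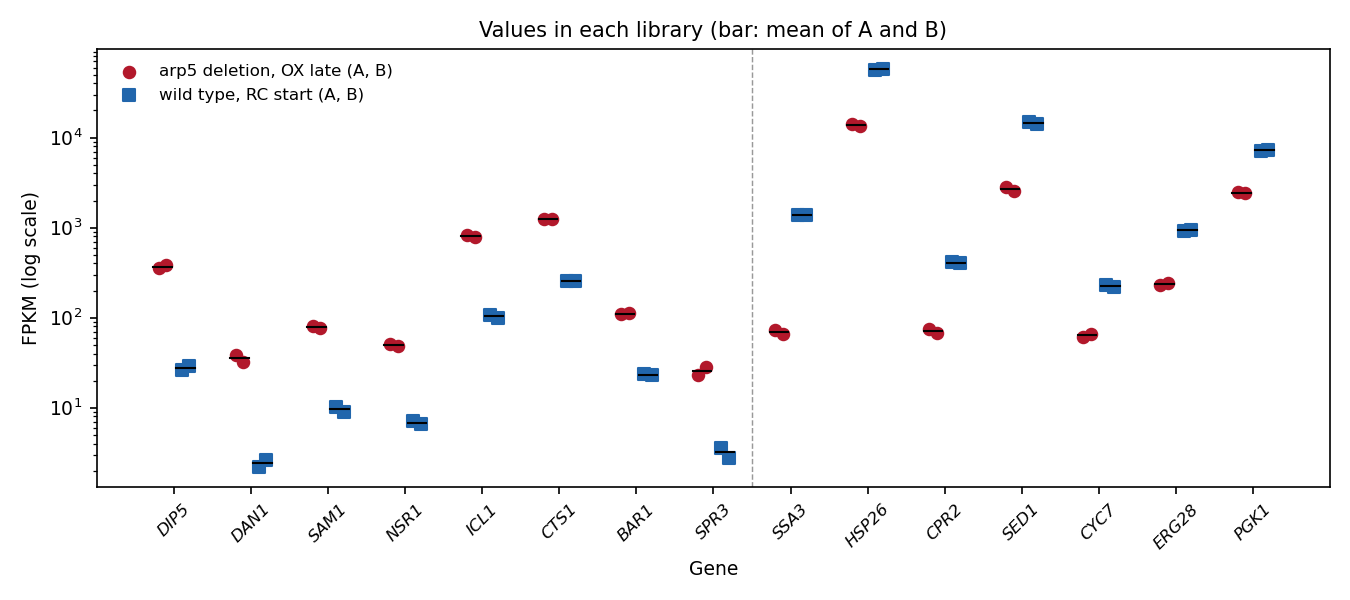
FPKM in each library (log axis) for 8 genes called higher (left of the dashed line) and 7 called lower (right), with arp5 deletion OX late as red circles left of wild-type RC start as blue squares and a bar at each mean of A and B. For every gene shown the 2 groups are apart by far more than A and B differ within a group, and the genes were picked from those called.

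Cell separation genes, which daughter cells express on leaving mitosis, were the list with the highest median. Of 18 tested, 14 were called higher and none lower, with a median of 1.49. DSE1, a daughter-specific wall gene, had 186 and 225 FPKM in arp5 deletion OX late and 27.5 and 35.6 FPKM in wild-type RC start (2.67 ± 0.13). CTS1, the endochitinase gene that frees the daughter, had 1237 and 1232 FPKM in arp5 deletion OX late, against 253 and 258 FPKM in wild-type RC start (2.27 ± 0.04). In the deletion OX late was the highest phase of CTS1 and RC mid its lowest, with 559 FPKM, whereas in wild type it peaked at RC mid, 1 label after RC start, with 2465 FPKM.

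Of 41 mitosis genes, 4 (9.76%) were called lower and none higher (median -0.19), against 4.84% lower over all genes, and 1 was called higher and none lower against wild-type RB late. The B-type cyclin genes CLB1 (23.0 and 19.7 FPKM in arp5 deletion OX late, 77.3 and 78.0 FPKM in wild-type RC start) and CLB2 (10.9 and 11.6 FPKM in arp5 deletion OX late, 29.3 and 30.7 FPKM in wild-type RC start) were among them. Of 67 replication genes 2 (2.99%) were called lower, a smaller share than the 4.84% over all genes. They were the checkpoint kinase gene RAD53 (-1.19 ± 0.15) and the origin-licensing gene CDC6 (-1.08 ± 0.22). Without library A of wild-type RC start CDC6 no longer passed (-0.86). Among 24 G1 and Start genes 4 (16.7%) were called higher and 2 (8.33%) lower, against 6.97% and 4.84% over all genes. FAR1, the inhibitor of the G1 cyclin kinase, had 18.5 and 17.3 FPKM in arp5 deletion OX late, against 5.70 and 5.57 FPKM in wild-type RC start (1.51 ± 0.06), and TOS6 was higher as well (1.53 ± 0.18). NRM1, a repressor of G1/S transcription, was lower (-1.39 ± 0.09). None of the 8 core histone genes was called (median 0.09), and 4 were higher and 3 lower at an unadjusted limma p under 0.05.

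All 20 genes of a-type mating and the pheromone response had a positive difference, and 11 were called higher (median 1.16), whereas against wild-type RB late 1 was called higher and 1 lower (median 0.02). BAR1 encodes the protease that degrades alpha-factor. It had 109 and 112 FPKM in arp5 deletion OX late and 23.5 and 22.9 FPKM in wild-type RC start (2.20 ± 0.05). Its mean in wild-type RB late was 110.3 FPKM, beside 110.5 FPKM in arp5 deletion OX late. STE2, the alpha-factor receptor gene, had 134 and 141 FPKM in arp5 deletion OX late, against 42.2 and 48.5 FPKM in wild-type RC start (1.58 ± 0.07). MFA1, an a-factor gene, had 7228 and 6624 FPKM in arp5 deletion OX late and 2654 and 2601 FPKM in wild-type RC start. The 5 a-type markers, all above 0 in every library and all called higher, summed to 11326 and 10604 FPKM in arp5 deletion OX late and 4090 and 4017 FPKM in wild-type RC start. The 4 alpha-type markers were above 0 in every library, with summed FPKM of 240 and 237 in arp5 deletion OX late and 74.4 and 77.0 in wild-type RC start. MF(ALPHA)1, an alpha-factor gene, was the only marker of them called, with 177 and 169 FPKM in arp5 deletion OX late, against 20.6 and 25.0 FPKM in wild-type RC start (2.88 ± 0.07). The log2 differences of the others were 0.25 for MF(ALPHA)2, 0.99 for STE3 and -0.10 for SAG1. Against wild-type RB late MF(ALPHA)1 was not called (0.81). The alpha-factor genes resemble each other and can share reads. The part of alpha-type expression in the differences of mating genes was not tested.

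Among 48 meiosis and sporulation genes, 6 (12.5%) were called higher and 1 (2.08%) lower (median 0.25), against 6.97% and 4.84% over all genes. SPR3, a septin gene of sporulation, had 23.2 and 28.6 FPKM in arp5 deletion OX late and 3.59 and 2.78 FPKM in wild-type RC start (2.68 ± 0.15). GMC2, which acts in meiotic chromosome pairing, had 9.19 and 9.78 FPKM in arp5 deletion OX late, against 0.348 and 1.14 FPKM in wild-type RC start (2.62 ± 0.27). SPO11, the nuclease-like gene of meiotic breaks, was also called (2.04 ± 0.23), whereas the meiotic regulator NDT80 had 19.3 and 23.8 FPKM in arp5 deletion OX late and 11.3 and 11.3 FPKM in wild-type RC start and was not called. The 4 meiotic markers, none at 0 in any library, summed to 66.4 and 75.2 FPKM in arp5 deletion OX late, against 32.1 and 35.0 FPKM in wild-type RC start, and their part in the differences was not tested.

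Small groups held further large differences, and over all genes 6.97% were called higher and 4.84% lower. DAN1, a wall protein gene known from anaerobic growth, had 38.7 and 32.2 FPKM in arp5 deletion OX late and 2.20 and 2.60 FPKM in wild-type RC start (3.42 ± 0.27), while the rest of the 22 hypoxic genes gave 1 higher and 2 lower calls. THI5 makes the pyrimidine part of thiamine and has near-identical copies. It had 273 and 240 FPKM in arp5 deletion OX late, against 64.4 and 62.5 FPKM in wild-type RC start (2.00 ± 0.08). Of 26 thiamine and vitamin B6 genes, 5 (19.2%) were called higher and none lower. Of 25 iron uptake genes, 5 (20%) were called higher and none lower. Among them was FIT3, which encodes a wall protein that retains iron carriers. FIT3 had 283 and 270 FPKM in arp5 deletion OX late and 100.1 and 91.8 FPKM in wild-type RC start (1.52 ± 0.09). Phosphate response genes gave 1 higher (3.70%) and 2 lower (7.41%) calls of 27. PHO11, among the lower ones, passed the limit of 1 FPKM only through wild type. Its phase means were 1.16 to 2.01 FPKM there, against 0.14 to 0.50 FPKM in the deletion. Glucose transport and sensing genes gave 4 higher (14.8%) and 3 lower (11.1%) of 27. Among the lower ones was the invertase gene SUC2. SUC2 had 146 and 144 FPKM in arp5 deletion OX late, against 559 and 602 FPKM in wild-type RC start (-1.99 ± 0.06). Of the other INO80 genes, only the ATPase gene INO80 was called, with 49.8 and 52.8 FPKM in arp5 deletion OX late and 22.2 and 22.8 FPKM in wild-type RC start (1.16 ± 0.05). None of the 11 genes of SWR1, a related remodeller, and its histone H2A.Z was called, and 4 were higher and 4 lower at an unadjusted limma p under 0.05.

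The called genes were mostly cycling genes, and they stood at the turning points of the wild-type cycle. Of the 454 higher genes, 399 (87.9%) cycled in at least 1 genotype by limma's F test, as did 282 of the 315 lower genes (89.5%) and 63.2% of all genes tested. Arp5 deletion OX late was the lowest phase of its genotype for 168 of the higher genes (37.0%), against 22.3% of all genes. It was the highest phase for 82 of the lower genes (26.0%), close to the 21.75% of all genes. Wild-type RC start was the lowest of the 6 wild-type phases for 275 of the higher genes (60.6%), against 23.9% of all genes, and the highest phase for 178 of the lower genes (56.5%), against 23.5% of all genes. These shares use the values that made the calls, so they describe the calls and are no test. The range over the 6 phases was smaller in the deletion for 89.1% of all genes, with medians of 0.74 in the deletion and 1.34 in wild type (log2). It was smaller for 90.8% of the higher genes and 93.0% of the lower genes.

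The gene groups showed the same in their centred medians, where 0 is the mean of the 6 phases of a genotype. Ribosome assembly genes stood at -0.80 in arp5 deletion OX late and at -1.74 in wild-type RC start, the lowest point of each cycle. Stress genes stood at 0.64 in arp5 deletion OX late and at 1.31 in wild-type RC start, the highest point of each cycle. Cell separation genes differed in timing as well as in level: they were at their highest in arp5 deletion OX late (0.39), and below the wild-type mean at RC start (-0.35). Respiratory genes were below the mean in arp5 deletion OX late (-0.13), and above it in wild-type RC start (0.37).

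**Figure D4:**
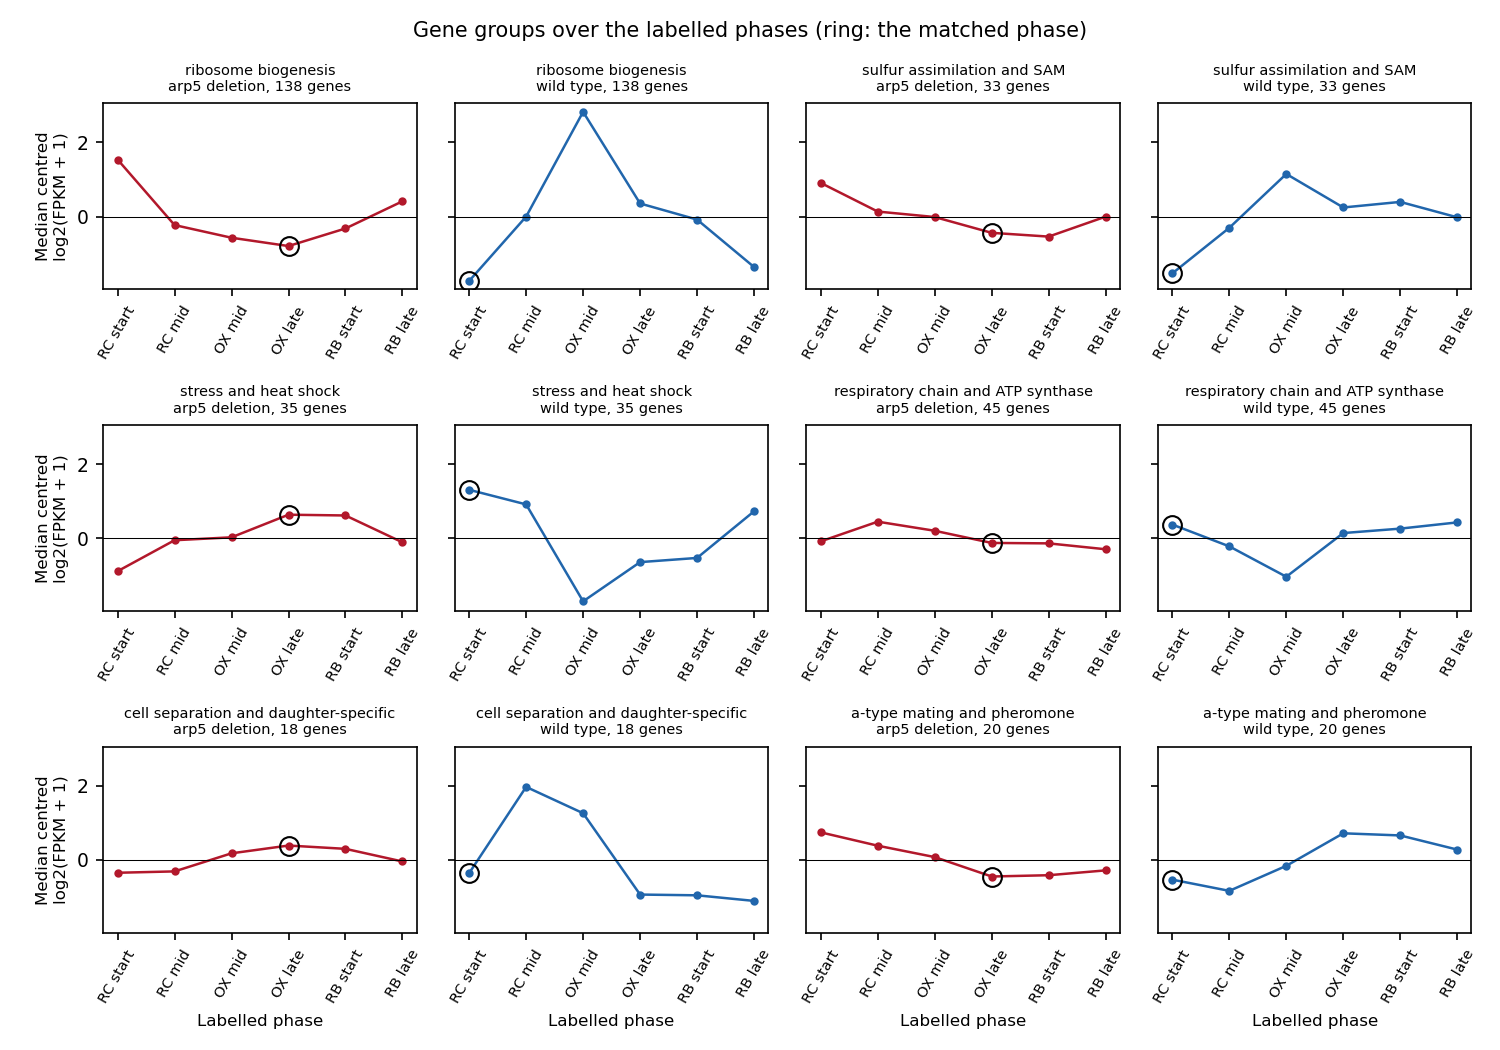
Median centred log2(FPKM + 1) of 6 gene lists (vertical axis; 0 is the mean of the 6 phases of a genotype) over the labelled phases, for arp5 deletion (red, left of each pair of panels) and wild type (blue, right), with a ring at the matched phase. Ribosome biogenesis is lowest and stress highest at the ring in both genotypes, with a smaller range in arp5 deletion; cell separation is highest at the ring in arp5 deletion and peaks at RC mid in wild type.

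The genotypes were then tested in the other 20 libraries, none of which is in the pair. Each arp5 deletion phase was set beside the wild-type phase 3 labels further on, the offset of the pair. The difference was tested with limma over the 5 phase pairs as blocks, so that the phase pair is the unit. All phases of a genotype come from 1 culture, so p measures agreement over phases and not spread between cultures. The test called 129 of 6510 genes higher (1.98%) and 68 lower (1.04%) in the deletion. The phases set side by side by this offset matched less well than the chosen pair, with centred correlations of 0.53, 0.67, 0.68, 0.54 and 0.48 for the pairs of arp5 deletion RC start, RC mid, OX mid, RB start and RB late, and arp5 deletion RC start was closer to wild-type OX mid (0.83). The counts depended on the phase pairs included: without that of arp5 deletion RC mid they were 2 and 1. Without the pairs of RC start, OX mid or RB start they were 38, 53 and 28 higher and 23, 21 and 14 lower, and without that of RB late they were 152 and 96.

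Of the 454 genes higher in the matched pair, 84 were called higher in the other phases, which is 18.5% of the 454 and 65.1% of the 129. Of the 315 lower genes, 39 were called lower there, which is 12.4% of the 315 and 57.4% of the 68. No gene was called in opposite directions. The sign was the same for 334 of the 454 (73.6%) and 255 of the 315 (81.0%), against 50.1% positive and 49.9% negative over all genes, and 143 and 97 had that sign in all 5 phase pairs. The libraries are separate, but they come from the same 2 cultures. The centring that chose the pair also used the other 5 phases of each genotype. That choice favours agreement of the pair with the mean genotype difference, so these shares are a description and no test.

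Single genes led the tested differences in the other phases. DAN1 averaged 24.3 ± 7.50 FPKM in the deletion and 1.73 ± 0.496 FPKM in wild type (SD over 5 phases; log2 difference 3.20 ± 0.16, limma adjusted p = 0.000826, higher in 5 of 5 pairs), and it passed without any 1 phase pair. DIP5 averaged 344 ± 209 FPKM in the deletion and 39.7 ± 32.7 FPKM in wild type (3.14 ± 0.30, limma adjusted p = 0.00757, higher in 5 of 5). THI5 averaged 330 ± 72.3 FPKM in the deletion, against 39.9 ± 15.8 FPKM in wild type (3.08 ± 0.27, limma adjusted p = 0.00724). These 3 genes were thus higher in the deletion inside and outside the matched pair. IMA5, an isomaltase gene, had the largest difference (3.63 ± 0.52, limma adjusted p = 0.0192), although it was not called in the pair (0.94 ± 0.08). HMX1, the haem oxygenase gene, followed with 3.06 ± 0.45 (limma adjusted p = 0.0214). Of the meiotic genes SPR3 (2.18 ± 0.20, limma adjusted p = 0.00724) and GMC2 (2.41 ± 0.26, limma adjusted p = 0.00938) were called as well.

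Lower in the other phases, after ARP5, were DSS4, a gene of secretory vesicle transport, with 11.0 ± 3.03 FPKM in the deletion and 59.3 ± 12.9 FPKM in wild type (-2.35 ± 0.23, limma adjusted p = 0.00757, lower in 5 of 5 pairs), and CPR2, with 62.6 ± 12.7 FPKM in the deletion, against 273 ± 86.8 FPKM in wild type (-2.08 ± 0.19, limma adjusted p = 0.00724, lower in 5 of 5). MRH1, which encodes a plasma membrane protein, came next at -1.92 ± 0.36 (limma adjusted p = 0.0371, lower in 5 of 5), followed by the cysteine transporter gene YCT1 at -1.84 ± 0.31 (limma adjusted p = 0.0273, lower in 5 of 5). YCT1 was not called in the matched pair (-0.32 ± 0.07). Without the phase pair of arp5 deletion RC mid only ARP5 and DAN1 of the 10 genes named by size in the other phases still passed.

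Most genes of the large groups of the matched pair were not called in the other phases, where 1.98% of all genes were called higher and 1.04% lower. Ribosome assembly genes had 0 of 138 called in either direction there by limma, with a median of -0.15, against 0.98 in the pair. At an unadjusted p under 0.05 the count was also 0, while 863 of all 6510 genes were higher and 720 lower at that level. Their values varied widely between the phase pairs. DBP2 differed by 3.03, 0.36, 1.52, 0.78 and -3.78 in the pairs of arp5 deletion RC start, RC mid, OX mid, RB start and RB late, a mean of 0.38 ± 0.88, and NSR1 was higher in 4 of 5 and at -3.18 in that of RB late. The part of unequal phase matching in these values was not tested. Sulfur genes had 2 lower of 33 and a median of -0.52, against 0.66 in the pair, and SAM1 (-0.11 ± 0.54, limma adjusted p = 0.929) and MET6 (-0.10 ± 0.38, limma adjusted p = 0.902) did not pass. Stress genes had 2 higher of 35, with a median of 0.09. SSA3 (-1.19 ± 0.61, limma adjusted p = 0.291) and HSP26 (-0.02 ± 0.58, limma adjusted p = 0.986) did not pass there. Among a-type mating genes 4 of 20 were called higher, and among genes for acetate, glyoxylate and gluconeogenesis 3 of 24, with a median of 1.22. Outside ribosome assembly, each of these counts was a larger share of its list than that over all genes. Whether the pair and the other phases differ was not tested, since the pair was chosen on its values.

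**Figure D5:**
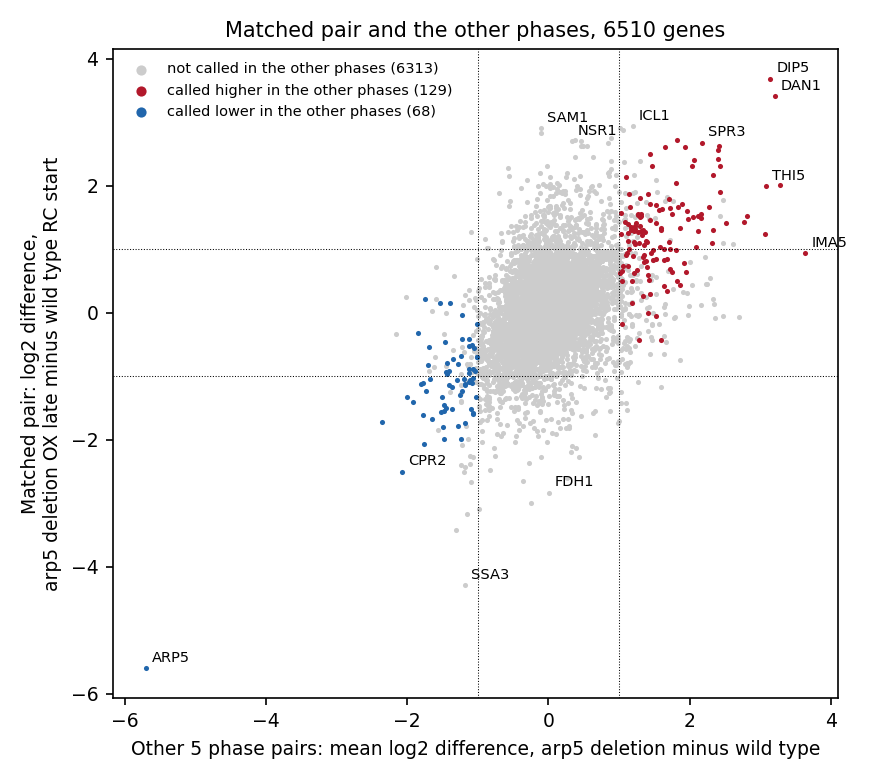
Log2 difference in the matched pair (vertical axis, arp5 deletion OX late minus wild-type RC start) and mean log2 difference over the other 5 phase pairs (horizontal axis) for 6510 genes, with dotted lines at the 2-fold limits. The 129 genes called higher (red) and 68 called lower (blue) in the other phases include DIP5, DAN1, THI5 and CPR2, whereas SAM1 and FDH1 lie near 0 on the horizontal axis.

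The choice of wild-type phase mattered for some groups and not for others. Wild-type RB late, the other close match, was set against the same arp5 deletion OX late libraries, so the 2 comparisons share those libraries. It gave 305 genes higher and 275 lower over all genes. Of the 454 genes higher against RC start, 196 (43.2%) were called higher against RB late and 6 lower, and of the 315 lower genes 127 (40.3%) were called lower and 1 higher. Cell separation genes had 15 of 18 called higher against RB late, beside 14 against RC start, and respiratory genes 13 of 45 lower, beside 11. Glycolysis and fermentation genes had none of 28 higher and 3 lower against RB late, and sterol synthesis genes 1 of 29 higher and 2 lower. Thiamine and vitamin B6 genes had 2 of 26 higher and 3 lower there. Genes of RNA polymerases I and III had 1 of 33 higher and none lower, and cytosolic ribosomal protein genes none of 137 higher and 2 lower. Among a-type mating genes, STE2 stood at -0.37 against RB late and 1.58 against RC start. DIP5 (1.92), DAN1 (3.65), SPR3 (2.65), DSE1 (3.36) and CTS1 (2.93) were called higher against RB late too, and CPR2 (-2.30), SED1 (-1.56) and ERG28 (-1.54) were called lower.

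Over all genes the choice of arp5 deletion phase mattered less, though some lists moved. Arp5 deletion RB start against the same wild-type RC start libraries gave 597 genes higher and 429 lower. Among them were 388 of the 454 (85.5%) and 236 of the 315 (74.9%), and none was called the opposite way. Ribosome assembly genes then had 107 of 138 called higher (median 1.44), and mitochondrial ribosomal protein genes 31 of 72 lower, beside 2 in arp5 deletion OX late. Trehalose and glycogen genes had none of 18 higher and 2 lower (median -0.59), beside 1 higher and none lower in arp5 deletion OX late (0.07). Peroxisome and fatty acid oxidation genes had 2 of 47 higher and 7 lower (-0.26), beside 3 and 1 (-0.06). Genes for acetate, ethanol, glyoxylate and gluconeogenesis had 7 of 24 higher and 1 lower (0.01), beside 8 and 1 (0.45). SSA3 stood at -2.77 in arp5 deletion RB start and -4.30 in arp5 deletion OX late.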

How the data were processed

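The authors deposited FPKM values of the cycle RNA libraries as 1 table, and its 24 columns were matched to samples by name. RNA came from a MasterPure kit and libraries from the TruSeq mRNA kit, per the labels' protocols. For these libraries Bowtie2 and DESeq2 are listed with build sacCer3, per the submitters' processing notes, and versions are not given in the sources used here. The rule for assigning reads and any use of strand are likewise not stated there. Reads of overlapping or antisense genes therefore cannot be separated, and near-identical genes can share reads.

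FPKM are not counts. Reads on genes were estimated from the step between low values, of which 96.0% to 100% were whole reads within 0.1 of a read. They cover counting error only. Symbols come from RefSeq (assembly R64), which matched 5900 of 6840 genes.

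Values were analysed as log2(FPKM + 1), which understates changes of low genes, with limma 3.58.1 in R 4.3.3 (intensity trend, Benjamini-Hochberg adjustment over 6510 genes). The pair was a contrast between 2 of 12 genotype and phase groups, fitted to all 24 libraries, and the other phases a fit of phase means with the phase pair as a block. Genes counted as cycling had an F test adjusted p below 0.05 and a log2 range over the phases of 1 or more. A position within the cycle is the value minus the mean of the 6 phases. The pair, the 35 gene lists, their members and the tests were chosen with earlier results of these data known. Named genes are ARP5, the 10 largest rises and falls in the pair, the 5 largest rises and falls in the other phases (called, with a standard name and the same direction in every library or phase pair), up to 2 called genes per list and direction, and the markers. The ATAC columns name no phase, and they and the rapamycin libraries were not used here. Some genes that this rule names are not reported here.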

Additional observations from a re-analysis of the deposited data

How the results depend on the processing

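The correlation of 0.83 that chose the pair was 0.86 over the 4117 cycling genes, 0.56 centred over all 12 groups, 0.74 with a pseudocount of 0.1 and 0.79 as Spearman's rho, and 0.80 to 0.83 with 1 library of the pair left out. Counts in the pair kept within 1.5 times of 454 and 315 under every setting tried: 363 to 496 higher and 303 to 346 lower under another pseudocount, no filter, quantile normalization, median centring or the 4 libraries alone, and 428 to 488 and 298 to 343 with 1 library left out. With the letters A and B as a replicate block the counts were 454 and 315 again. The letters do not pair libraries: deviations of the groups' A and B libraries correlated at -0.12 to 0.19. Leaving out 1 phase pair gave 2 to 152 higher and 1 to 96 lower genes in the other phases, and the other settings there 113 to 129 and 60 to 95. Of the 91 named genes, 14 no longer passed under quantile normalization. Both exchanges of a phase were chosen after seeing the data. Against wild-type RB late 7 named genes changed sign, namely MET6 (-0.19), MLS1 (-0.25), STE2 (-0.37), GDH1 (-0.78), HSP26 (0.010), CDC6 (0.29) and MEP3 (0.18), and 34 others no longer passed; the cause was not tested. With estimated depths of 4.97 to 9.68 M reads, the low genes ANB1 and PHO11 lost their call when some libraries were left out, as did PFK27, PHM6, MRPL8, YOX1, CDC6 and PHM8.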
